A study of Mus musculus with 12 samples.

Results

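The 10 CC chemokine ligand genes described here (Ccl2, Ccl3, Ccl4, Ccl5, Ccl6, Ccl7, Ccl9, Ccl17, Ccl22 and Ccl24) were chosen by name, and their reads were compared between eosinophils of 2 fat depots and of blood. They are 10 of the 54115 genes whose transcripts the deposited tables list. Eosinophils are granulocytes that leave the blood for tissues, fat among them. The 12 libraries came from 5 wild-type male FVB/NJ mice aged 20 weeks, on chow and untreated. They form 3 groups of 4 libraries: gonadal adipose eosinophils (mice 2846, 2807, 2683 and 2668), subcutaneous adipose eosinophils (mice 2846, 2807, 2771 and 2668) and blood eosinophils (mice 2807, 2771, 2683 and 2668). Values of single libraries follow the mice in these orders. In every group, live cells carrying CD45, CD11b and Siglec-F were sorted. Fat was first digested for 45 min at 37 C with 1 mg/mL collagenase type II, and no digestion is described for blood, so the tissue and the digestion cannot be told apart. Each library is 1 sort from 1 tissue of 1 mouse, and all mice share strain, sex, age and diet.

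CC chemokines are small secreted proteins that draw leukocytes along a gradient by binding G protein-coupled receptors of the CCR family. Several ligands share a receptor, and most ligands of a kind lie side by side in gene clusters. In mouse tissue, Ccl3, Ccl4 and Ccl5 attract monocytes and lymphocytes, Ccl2 and Ccl7 attract monocytes through Ccr2, Ccl17 and Ccl22 attract T cells through Ccr4, and Ccl24 (eotaxin-2) attracts eosinophils themselves through Ccr3. Ccl6 and Ccl9 are rodent genes of the same cluster whose products bind Ccr1.

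The libraries held 12477671 to 23734940 estimated reads, except the subcutaneous library of mouse 2846 with 4379954. That library also stood apart with 28.1% of its reads in mitochondrial ribosomal RNA, against 4.66% to 8.79% in the other libraries. All 10 genes of the eosinophil marker list had reads in 11 libraries, and 8 of the 10 in that subcutaneous library. The list's summed level was 1597 to 4303 CPM (read counts scaled to library size with TMM factors) in gonadal, 1362 to 4091 CPM in subcutaneous and 3783 to 4719 CPM in blood libraries. Markers of other cells were also present. The 13 macrophage genes summed to 843 to 2671 CPM in gonadal, 966 to 3360 CPM in subcutaneous and 332 to 673 CPM in blood libraries, and none was at 0 in a whole group.

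The pair Ccl6 and Ccl9 carried most of the reads of the 10 genes, lie close together on chromosome 11 and went opposite ways between subcutaneous fat and blood, so their promoters are shown. Each is 250 bases before and 20 bases from the annotated start, from the RefSeq table of GRCm38.p6, on the minus strand, 5′ to 3′. Capitals mark aligned bases that are identical in a local alignment of both promoters. Ccl6 is chr11:83593068-83593337 and Ccl9 is chr11:83578617-83578886.
Ccl6: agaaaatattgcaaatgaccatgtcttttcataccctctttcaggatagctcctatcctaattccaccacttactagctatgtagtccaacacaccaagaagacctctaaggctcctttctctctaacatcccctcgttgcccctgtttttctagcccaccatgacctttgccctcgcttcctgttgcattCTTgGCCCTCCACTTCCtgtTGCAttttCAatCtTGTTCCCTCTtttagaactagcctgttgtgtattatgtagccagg
Ccl9: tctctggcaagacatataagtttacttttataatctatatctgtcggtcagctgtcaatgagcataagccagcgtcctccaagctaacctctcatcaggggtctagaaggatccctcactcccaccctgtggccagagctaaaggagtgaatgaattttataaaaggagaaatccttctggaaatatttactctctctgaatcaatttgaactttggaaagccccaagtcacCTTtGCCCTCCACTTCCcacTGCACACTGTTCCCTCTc
The capitals fall in a stretch of 44 aligned columns with 33 identical (75%), which runs from position -59 to -16 of Ccl6 and from -18 to 18 of Ccl9, with the start at 0. The similar letters thus lie upstream of the Ccl6 start and across the Ccl9 start. Both were searched on both strands for 5 short motifs, in the table's full window of 300 bases. For AP-1 the letters TGANTCA were searched, a pattern wider than the AP-1 site because any base may stand in the middle. Ccl9 held these letters as TGAATCA at -53 to -47, with A in the middle, so it is not shown to be an AP-1 site. The wide pattern occurs in 7.81% of 32851 promoters in the table. It held 1 match to the NF-kB consensus, GGAAAGCCCC at -35 to -26 as read on the printed strand, found in 4.51% of promoters. It also held TATAAA, found in 13.6%, in 3 matches of which 2 overlap. The window of Ccl6 held none of the AP-1, NF-kB, TATAAA, STAT6 (TTC and GAA with 4 bases between) and C/EBP (TTGCNNAA) letters. Promoters of Ccl3, Ccl17 and Ccl22 were also in the table. Among them Ccl17 held 1 match, the STAT6 letters as TTCTCTGGAA at -154 to -145, which 6.95% of promoters hold, and none of the 5 promoters held the C/EBP letters (10.8% of all).

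Between gonadal adipose and blood eosinophils, 7 of the 9 CC ligand genes that could be tested were higher in gonadal adipose and none was lower. The 7 were Ccl2, Ccl3, Ccl4, Ccl7, Ccl9, Ccl22 and Ccl24. Over all 15367 genes tested, 15.4% were higher and 11.6% lower, which makes 27% in either direction (edgeR, adjusted p threshold of 0.05). The median log2 fold change of the 9 genes was 4.72, against 0.08 over all genes. The same 7 genes were higher in subcutaneous adipose than in blood, and Ccl6 was lower. There the whole table had 15.4% of genes higher, 11.4% lower and 26.8% in either direction, and the medians were 5.37 for the 9 genes and 0.07 for all genes. With genes of 0 or 1 blood reads set at their bound or count ratio, the medians of the 9 were 4.72 in gonadal and 5.36 in subcutaneous adipose. The filter on low counts asked for 0.657 CPM in 4 libraries. No blood library of Ccl2, Ccl7 and Ccl22 reached that level and only 2 of Ccl4, Ccl5 and Ccl24 did, so these genes were tested because of their adipose libraries, and the counts and medians over the 9 genes are given as a description. Ccl22 reached it in 4 gonadal but only 2 subcutaneous libraries, and Ccl5 in 4 subcutaneous but only 1 gonadal library. In the comparison of the lower depot with blood, each was thus tested because of the other depot. Ccl3, Ccl6 and Ccl9 reached the level in all blood libraries. The 2 comparisons share the blood libraries. All 4 gonadal libraries lay above all blood libraries for the 7 genes, as for 18.6% of genes tested. In subcutaneous adipose this held for 6 of them (13.8% of genes tested), because 1 subcutaneous library had no Ccl22 read. None of the 9 genes passed the test between gonadal and subcutaneous adipose. Ccl17 had too few reads to be tested.

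**Figure D1:**
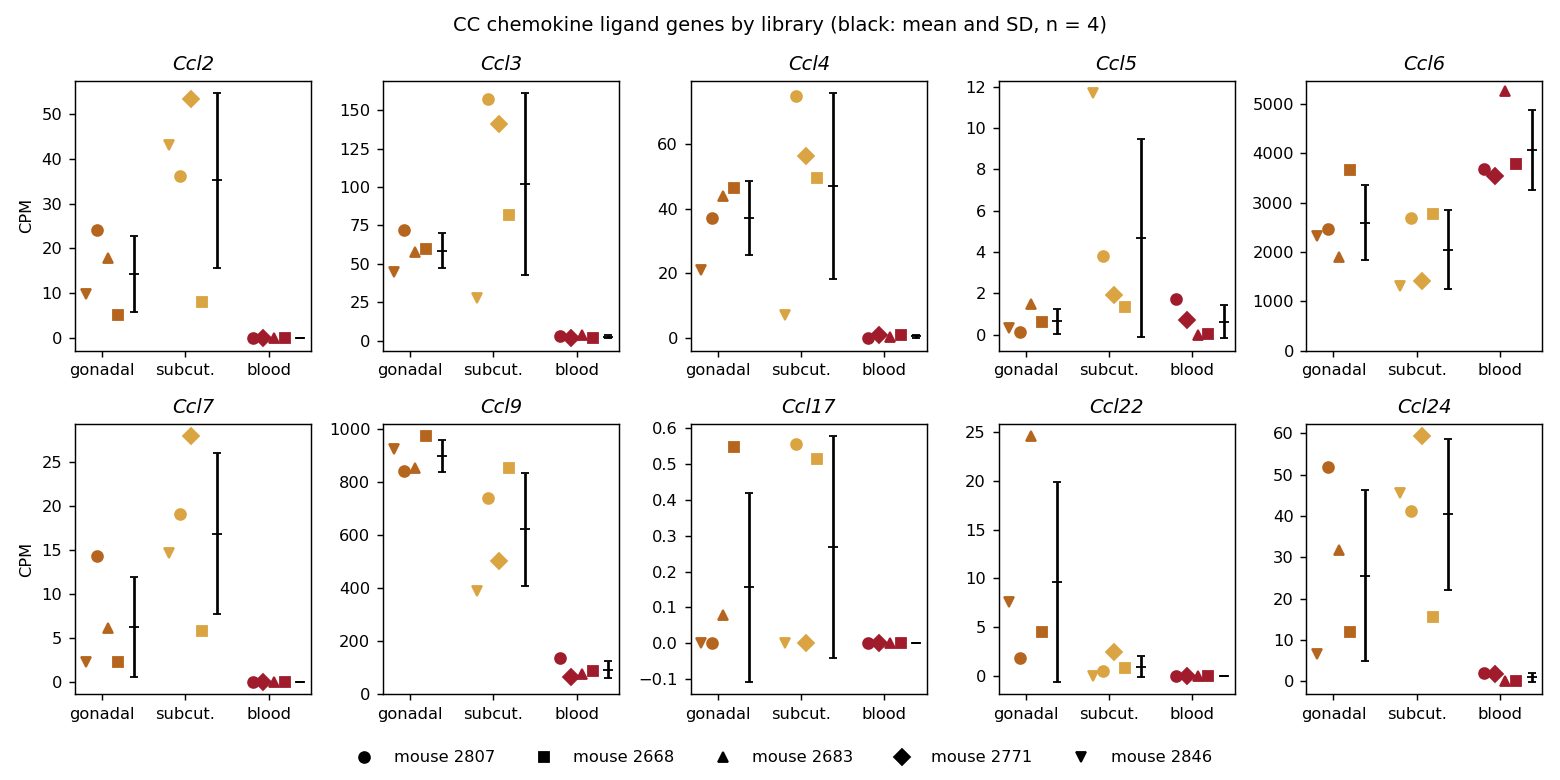
Level of each CC chemokine ligand gene in every library, in CPM on a linear axis that differs between genes, for gonadal, subcutaneous (subcut.) and blood eosinophils; symbols mark the mouse and black bars the mean and SD of 4 libraries. Blood libraries lie at or near 0 for all genes but Ccl5, Ccl6 and Ccl9, and the blood libraries of Ccl6, at 3544 to 5265 CPM, lie above its subcutaneous ones.

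Ccl6 and Ccl9 had the most reads of the 10 genes. Ccl6 (ENSMUSG00000018927, chromosome 11, 83587882 to 83593087 in mm10, minus strand) encodes a chemokine that mouse macrophages and eosinophils are known to make. Gonadal libraries had 2328, 2471, 1903 and 3670 CPM, subcutaneous libraries 1311, 2690, 1407 and 2779 CPM, and blood libraries 3679, 3544, 5265 and 3778 CPM. All subcutaneous libraries lay below all blood libraries, as for 15.7% of genes tested, while the gonadal library of mouse 2668 reached the blood range. The mean was 2593 ± 758 CPM in gonadal, 2047 ± 796 CPM in subcutaneous and 4067 ± 805 CPM in blood libraries (SD, n = 4 each). Subcutaneous adipose was lower than blood by a log2 fold change of -0.99 (SE 0.30, edgeR adjusted p = 0.0289), and gonadal adipose had -0.65 (SE 0.30, edgeR adjusted p = 0.125). Ccl6 was lower in fat in 3 of 3 mice with both libraries in either comparison, though nearly equal in gonadal fat and blood of mouse 2668. The gonadal to blood ratio was 0.361 (mouse 2683), 0.672 (mouse 2807) and 0.971 (mouse 2668). The subcutaneous to blood ratio was 0.397 (mouse 2771), 0.731 (mouse 2807) and 0.736 (mouse 2668). The subcutaneous call was lost without any 1 of 5 libraries. Leaving out blood libraries 1 at a time gave an edgeR adjusted p of 0.0501 (mouse 2771), 0.0907 (mouse 2683) and 0.0565 (mouse 2668), leaving out subcutaneous ones gave 0.0707 (mouse 2846) and 0.0820 (mouse 2771), and a mouse block gave 0.0569. Over 22 alternatives it ran from 0.00660 to 0.0907. In gonadal adipose, limma-voom gave an adjusted p of 0.0333, within a range of 0.0333 to 0.306.

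Ccl9 (ENSMUSG00000019122, chromosome 11, 83572919 to 83578636, minus strand), a Ccr1 ligand known as MIP-1 gamma, went the other way. It had 925, 842, 853 and 971 CPM in gonadal libraries, 389.6, 738, 502 and 853 CPM in subcutaneous libraries, and 136, 64.3, 76.3 and 87.0 CPM in blood libraries. Every adipose library exceeded every blood library, and the gonadal libraries were close to each other. The mean was 898 ± 61.1 CPM in gonadal, 621 ± 212 CPM in subcutaneous and 91.0 ± 31.6 CPM in blood libraries (SD, n = 4 each). Gonadal adipose was 9.87-fold higher than blood (log2 fold change 3.30, SE 0.29, edgeR adjusted p = 1.36e-05). Subcutaneous adipose was 6.83-fold higher than blood (log2 fold change 2.77, SE 0.29, edgeR adjusted p = 4.11e-05). Within mice with both libraries, the gonadal to blood ratio of Ccl9 was 6.18, 11.2 and 11.2, and the subcutaneous to blood ratio 5.41, 7.81 and 9.80.

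Set against each other as reads of 2 genes, not as levels per length, Ccl6 exceeded Ccl9 2.87 ± 0.674 times in gonadal, 3.27 ± 0.351 times in subcutaneous and 48.6 ± 17.8 times in blood libraries (SD, n = 4 each). The ratio was 2.23 to 3.78 in gonadal, 2.80 to 3.65 in subcutaneous and 27.0 to 69.0 in blood libraries. The sum over the 10 genes changed less than its make-up. It was 3643 ± 790 CPM in gonadal, 2915 ± 1011 CPM in subcutaneous and 4162 ± 796 CPM in blood libraries. Ccl6 gave 70.4% ± 5.01 of those reads in gonadal, 69.5% ± 4.79 in subcutaneous and 97.6% ± 0.975 in blood libraries. The 8 genes other than Ccl6 and Ccl9 summed to 152 ± 49.97 CPM in gonadal, 247 ± 105 CPM in subcutaneous and 4.71 ± 1.73 CPM in blood libraries (SD, n = 4 each). In bulk samples, fewer cells that hold an RNA and less of it per cell cannot be told apart.

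**Figure D2:**
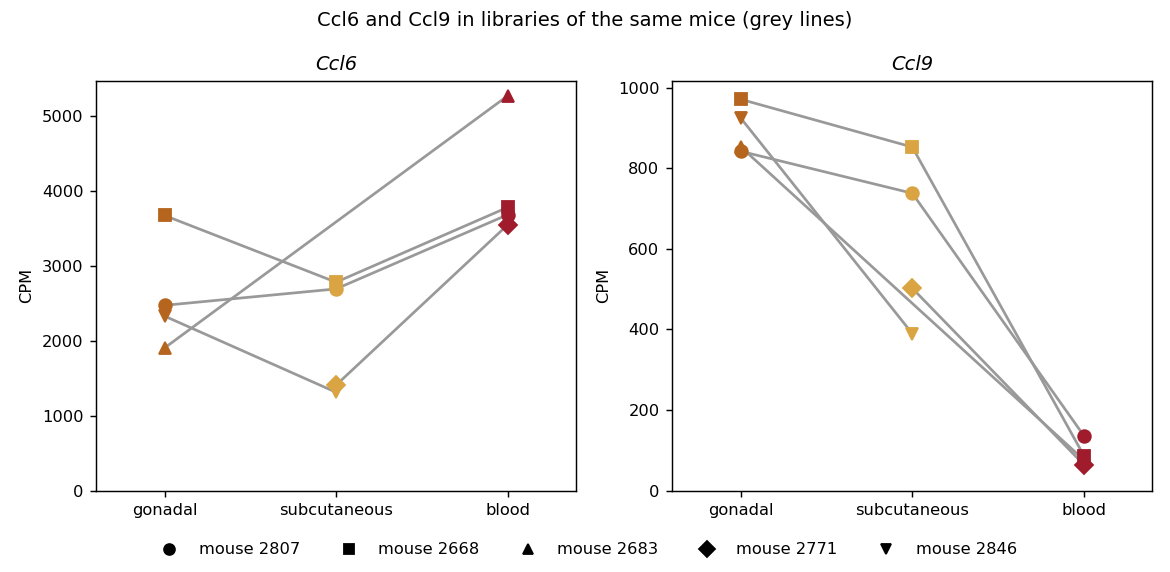
Ccl6 and Ccl9 in CPM (linear axes from 0) in gonadal, subcutaneous and blood libraries, with grey lines joining libraries of the same mouse. Ccl9 is higher in fat on every line that reaches blood, with 390 to 971 CPM in adipose libraries and 64.3 to 136 CPM in blood libraries, while Ccl6 is lower in fat on each such line.

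Levels of different genes were compared per length, as TPM summed over protein-coding transcripts only. Ccl6 led in all groups with means of 668 TPM in gonadal, 495 TPM in subcutaneous and 930 TPM in blood libraries. Ccl9 followed in gonadal libraries with 76.6 ± 10.97 TPM, against 35.1 ± 9.61 TPM for Ccl3 (SD, n = 4 each). In subcutaneous libraries Ccl3 averaged 59.7 ± 45.8 TPM and Ccl9 49.99 ± 24.2 TPM, an order within their spread. In blood Ccl9 had 7.89 ± 4.53 TPM and Ccl3 1.38 ± 0.639 TPM. Ccl4, Ccl24, Ccl2 and Ccl7 came next in both depots, and neighbours in that order lay within each other's spread. Over all transcripts Ccl9 would read 513 TPM in gonadal libraries, because a non-coding transcript of 398 bases, Ccl9-202, was given 23.1% to 30.8% of the gene's reads in each library. Of the 31-base words of Ccl9 transcripts, 7.5% also occur in other genes, against 1.02% for Ccl6, and Ccl6 and Ccl9 share none. E230016K23Rik overlaps Ccl6 on the other strand with 1.36 to 11.5 CPM, and Gm17268, which overlaps Ccl2 on the other strand, had 0 reads in all libraries.

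Ccl3 and Ccl4, the inflammatory ligands also known as MIP-1 alpha and MIP-1 beta, were with Ccl6 and Ccl9 the 4 genes of highest level per length in fat. Ccl3 (ENSMUSG00000000982, chromosome 11, 83647844 to 83649355, minus strand) had 44.5, 72.0, 58.0 and 59.4 CPM in gonadal libraries, 27.8, 157, 141 and 81.9 CPM in subcutaneous libraries, and 3.20, 1.55, 3.46 and 1.74 CPM in blood libraries. The groups did not overlap between either depot and blood, and the subcutaneous library of mouse 2846 was the lowest adipose one. Ccl3 was higher in gonadal adipose by a log2 fold change of 4.56 (SE 0.50, edgeR adjusted p = 9.19e-05) and in subcutaneous adipose by 5.36 (SE 0.52, edgeR adjusted p = 4.01e-05). Its mean was 58.5 ± 11.3 CPM in gonadal, 102 ± 59.0 CPM in subcutaneous and 2.49 ± 0.983 CPM in blood libraries (SD, n = 4 each).

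Ccl4 (ENSMUSG00000018930, chromosome 11, 83662584 to 83664683, plus strand) lies near Ccl3. Gonadal libraries had 21.2, 37.2, 43.9 and 46.2 CPM, subcutaneous libraries 7.19, 74.7, 56.2 and 49.5 CPM, and blood libraries 0, 1.17, 0.314 and 0.992 CPM. As for Ccl3, no blood library reached an adipose one and the subcutaneous library of mouse 2846 was lowest in fat. The log2 fold change was 5.85 in gonadal adipose (SE 0.87, edgeR adjusted p = 0.000808) and 6.20 in subcutaneous adipose (SE 0.88, edgeR adjusted p = 0.000672). A mouse block gave 6.598 in gonadal adipose.

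Ccl5 (ENSMUSG00000035042, chromosome 11, 83525778 to 83530518, minus strand), a chemokine that T cells and NK cells make, was low throughout. Gonadal libraries had 0.339, 0.144, 1.49 and 0.609 CPM, subcutaneous libraries 11.7, 3.80, 1.92 and 1.32 CPM, and blood libraries 1.72, 0.704, 0 and 0.0496 CPM. Adipose and blood libraries overlapped, and the highest value stood in the subcutaneous library of mouse 2846. The log2 fold change was 0.10 in gonadal adipose (SE 1.18, edgeR adjusted p = 0.960) and 2.88 in subcutaneous adipose (SE 1.25, edgeR adjusted p = 0.104). With DESeq2 the subcutaneous adjusted p was 0.0295, and with limma-voom 0.0159, within a range of 0.0159 to 0.277 over the alternatives. Leaving out 1 library at a time put the subcutaneous log2 fold change between 1.94 (subcutaneous, mouse 2846, left out) and 4.09 (blood, mouse 2807, left out). The 7 T cell markers summed to 1.77 to 5.33 CPM in gonadal, 25.3 to 219 CPM in subcutaneous and 9.22 to 30.1 CPM in blood libraries, with none at 0 in a group. In subcutaneous adipose 3 of the 7 were higher than in blood and none lower, beside 15.4% of all genes higher. In gonadal adipose 4 of the 7 were lower and none higher, beside 11.6% of all genes lower. The part of T cells in the Ccl5 values was not tested.

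Ccl2 and Ccl7, the monocyte attractants that bind Ccr2 (MCP-1 and MCP-3), were almost without reads in blood. Ccl2 (ENSMUSG00000035385, chromosome 11, 82035571 to 82037453, plus strand) had 9.91, 24.1, 17.8 and 5.12 CPM in gonadal libraries, 43.1, 36.2, 53.2 and 8.02 CPM in subcutaneous libraries, and 0, 0, 0.0524 and 0 CPM in blood libraries. A single read in blood thus stands against 1019 reads in gonadal and 1569 in subcutaneous libraries. Scaled for depth, these give ratios of 1119 in gonadal adipose (exact 95% interval 200 to 44228) and 2657 in subcutaneous adipose (476 to 105022), intervals that cover counting error only. The edgeR adjusted p was 5.37e-05 in gonadal and 2.30e-05 in subcutaneous adipose. Leaving out the blood library of mouse 2683, which held the read, made them lower bounds of 281-fold in gonadal and 667-fold in subcutaneous adipose with a floor of 3 counts for the whole group. A transcript with a retained intron held 27.5% of Ccl2 reads in gonadal and 32.9% in subcutaneous libraries. Its share was 55.4% in the gonadal library of mouse 2668 and 78.0% in the subcutaneous library of mouse 2846.

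Ccl7 (ENSMUSG00000035373, chromosome 11, 82045712 to 82047525, plus strand) lies near Ccl2. It had 2.24, 14.3, 6.13 and 2.19 CPM in gonadal libraries, 14.7, 19.1, 27.9 and 5.81 CPM in subcutaneous libraries, and no read in any blood library, which allows up to 0.0388 CPM there. Every adipose library had Ccl7 reads. Ccl7 was at least 155-fold higher in gonadal adipose (103-fold without the library of mouse 2807) and at least 463-fold higher in subcutaneous adipose than in blood. The edgeR adjusted p was 0.000638 in gonadal and 0.000336 in subcutaneous adipose.

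Ccl24 (ENSMUSG00000004814, chromosome 5, 135569937 to 135573049, minus strand), the eotaxin that tissue macrophages are known to make, had 6.52, 51.9, 31.8 and 11.9 CPM in gonadal libraries, 45.5, 41.2, 59.2 and 15.5 CPM in subcutaneous libraries, and 1.90, 1.88, 0 and 0.0992 CPM in blood libraries. Neither depot overlapped with blood, and the gonadal libraries differed widely among themselves. The log2 fold change was 4.72 in gonadal adipose (SE 1.06, edgeR adjusted p = 0.00827) and 5.37 in subcutaneous adipose (SE 1.09, edgeR adjusted p = 0.00499). The gonadal value was 4.08 without the library of mouse 2807, 5.46 with mouse as a block and 5.59 by limma-voom. The subcutaneous value was 6.66 by limma-voom.

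Ccl22 and Ccl17, which lie near each other on chromosome 8 and whose products bind Ccr4, were with Ccl5 the 3 genes of lowest level per length in both depots. Ccl22 (ENSMUSG00000031779, chromosome 8, 94745590 to 94751699, plus strand), which macrophages and dendritic cells make, had 7.60, 1.87, 24.5 and 4.57 CPM in gonadal libraries, 0, 0.555, 2.48 and 0.809 CPM in subcutaneous libraries, and no read in blood. The gonadal library of mouse 2683 held most of the gonadal reads. With 837 reads in gonadal and 58 in subcutaneous libraries, Ccl22 was at least 306-fold higher in gonadal adipose (122-fold without the library of mouse 2683) and at least 32.7-fold higher in subcutaneous adipose (15.7-fold without the library of mouse 2771). The edgeR adjusted p was 0.00171 in gonadal and 0.0102 in subcutaneous adipose. Only 2 subcutaneous libraries and no blood library reached the filter level, so the subcutaneous value was tested because of the gonadal libraries. The 6 monocyte markers summed to 692 to 6430 CPM in gonadal, 126 to 848 CPM in subcutaneous and 98.5 to 1838 CPM in blood libraries, most of it Fn1, with none at 0 in a group. The gonadal library of mouse 2683 had the highest sum, as it had the highest Ccl22. Of the 6, none was higher and 1 was lower in either depot than in blood. Over all genes 11.6% were lower in gonadal and 11.4% in subcutaneous adipose. The part of monocytes in the Ccl22 values was not tested.

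Ccl17 (ENSMUSG00000031780, chromosome 8, 94810453 to 94812036, plus strand) had 0, 0, 0.0785 and 0.548 CPM in gonadal libraries, 0, 0.555, 0 and 0.515 CPM in subcutaneous libraries, and no read in blood. These are 11 gonadal and 14 subcutaneous reads in 2 libraries of each depot, which puts gonadal adipose at least 4.03-fold and subcutaneous adipose at least 7.90-fold above the blood floor. The gene was not tested.

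**Figure D3:**
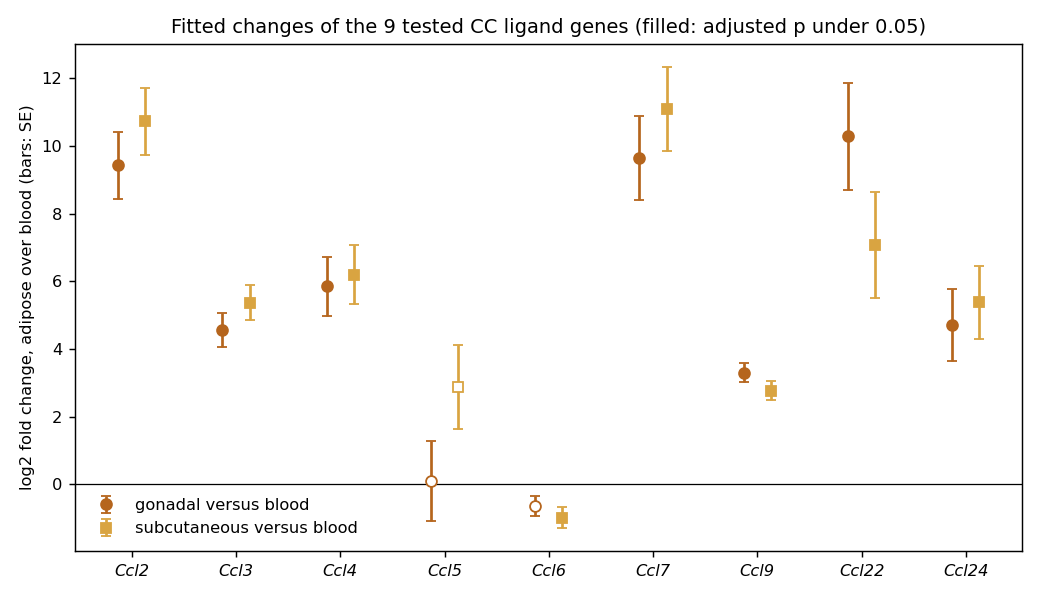
Fitted log2 fold changes over blood, with SE bars, of the 9 tested CC ligand genes in gonadal (circles) and subcutaneous (squares) adipose, filled where the edgeR adjusted p was under 0.05. Filled symbols above 0 mark the 7 higher genes in each depot, and the only filled symbol under 0 is Ccl6 in subcutaneous adipose (-0.99); fitted values of Ccl2, Ccl7 and Ccl22 depend on the prior count, since blood held at most 1 read.

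Gonadal against subcutaneous adipose, none of the 9 genes passed the threshold in edgeR, where 0.00651% of genes tested did. DESeq2 called none of the 9 either, and directions within mice are given as a description. Ccl22 was the farthest apart, with 9.64 ± 10.2 CPM in gonadal and 0.960 ± 1.07 CPM in subcutaneous libraries (SD, n = 4 each). It was higher in gonadal adipose in 3 of 3 mice with both libraries, at a log2 fold change of 3.20 (SE 1.01, edgeR adjusted p = 0.479, and 0.0705 to 0.949 over the alternatives). Without the gonadal library of mouse 2683 it was 2.21. Ccl2 had -1.30 (SE 0.56) and Ccl7 -1.45 (SE 0.68), both lower in gonadal adipose in 3 of 3 mice, with edgeR adjusted p of 0.590 and 0.641. Without the gonadal library of mouse 2807 the Ccl7 value was -2.25. Ccl9 had 0.53 (SE 0.27, edgeR adjusted p = 0.658) and was higher in gonadal adipose in 3 of 3 mice. Ccl5 had -2.78 (SE 1.24, edgeR adjusted p = 0.601) and was lower in gonadal adipose in 3 of 3 mice. It was -1.83 without the subcutaneous library of mouse 2846. Ccl3, Ccl4, Ccl6 and Ccl24 lay between -0.81 and 0.34.

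Several pairs of genes varied together among the 8 adipose libraries. These libraries share mice, depots and preparation, so correlations of log2 CPM are given as a description. Pearson's r was 0.92 for Ccl2 with Ccl7, 0.93 for Ccl7 with Ccl24 and 0.86 for Ccl2 with Ccl24. For Ccl3 with Ccl4 it was 0.88, and for Ccl6 with Ccl9 0.86. Ccl2 ran against both Ccl6 (-0.78) and Ccl9 (-0.79). Thus Ccl6 and Ccl9, which differ in direction between subcutaneous fat and blood, varied together within fat. Without the subcutaneous library of mouse 2846 the r of Ccl6 with Ccl9 was 0.78, that of Ccl2 with Ccl7 0.93 and that of Ccl3 with Ccl4 0.84. Other pairs moved with that library. Without it the r of Ccl3 was 0.74 with Ccl2 (0.26 with it), 0.86 with Ccl7 (0.48 with it), 0.71 with Ccl24 (0.34 with it) and -0.78 with Ccl9 (0.13 with it), so the distance of Ccl3 from Ccl2, Ccl7 and Ccl24 rests on that 1 library.

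Summed markers of other cells moved with some of these genes. Of the 13 macrophage genes, 6 were higher in gonadal and 7 in subcutaneous adipose than in blood, and none was lower. Over all genes 15.4% were higher in each depot, 11.6% lower in gonadal and 11.4% lower in subcutaneous adipose. Over the adipose libraries the macrophage sum had an r of 0.89 with Ccl24, 0.87 with Ccl2 and 0.80 with Ccl7, as a description of 8 libraries. The subcutaneous library of mouse 2771 had the highest macrophage sum, at 3360 CPM, and the highest Ccl2, Ccl7 and Ccl24 of all 12 libraries. The gonadal library of mouse 2668 had the lowest adipose sum, at 843 CPM, and the lowest adipose Ccl2 and Ccl7. The 8 dendritic cell genes, with sums of 11.5 to 42.8 CPM in gonadal, 17.9 to 90.9 CPM in subcutaneous and 3.03 to 40.4 CPM in blood libraries and none at 0 in a group, had an r of 0.96 with Ccl2 and 0.89 with Ccl7. The 6 NK cell genes summed to 1.04 to 6.56 CPM in gonadal, 0.809 to 21.6 CPM in subcutaneous and 0.262 to 5.93 CPM in blood libraries, with none at 0 in a group. Of these 4 were tested and none passed in either depot, yet their sum had an r of 0.90 with Ccl2, 0.88 with Ccl7 and 0.80 with Ccl24, so values this high were not particular to the macrophage list. All 7 fibroblast genes were higher in both depots, with sums of 82.9 to 465 CPM in gonadal, 142 to 4104 CPM in subcutaneous and 0.262 to 11.5 CPM in blood libraries, and none was at 0 in a group. The sum of 4104 CPM stood in the subcutaneous library of mouse 2846, and the other subcutaneous libraries had at most 359 CPM. The part of these cells in the values of Ccl2, Ccl7, Ccl22 and Ccl24 was not tested. Neutrophil markers were the reverse. Their sums were 187 to 409 CPM in gonadal, 170 to 681 CPM in subcutaneous and 2376 to 3701 CPM in blood libraries. Most of it was Retnlg, with means of 257 CPM in gonadal, 334 CPM in subcutaneous and 2582 CPM in blood libraries. Of 7 tested neutrophil genes 6 were lower in either depot, and Ly6g and Camp were at 0 in both depots.

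The eosinophil list moved with Ccl6 instead. The list's sum over the adipose libraries had an r of 0.91 with Ccl6, 0.70 with Ccl9 and 0.40 with Ccl3. Without the subcutaneous library of mouse 2846 these were 0.86, 0.44 and 0.00125. Ccl6 had an r of -0.80 with the macrophage sum. Of the 10 eosinophil genes, 4 were lower in each depot than in blood (Ccr3, Ear1, Ear2 and Ear6) and none higher. Over all genes 11.6% were lower in gonadal and 11.4% in subcutaneous adipose. Across the gonadal libraries Ccl9 stayed within 842 to 971 CPM, and the list's sum ranged from 1597 to 4303 CPM.

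**Figure D4:**
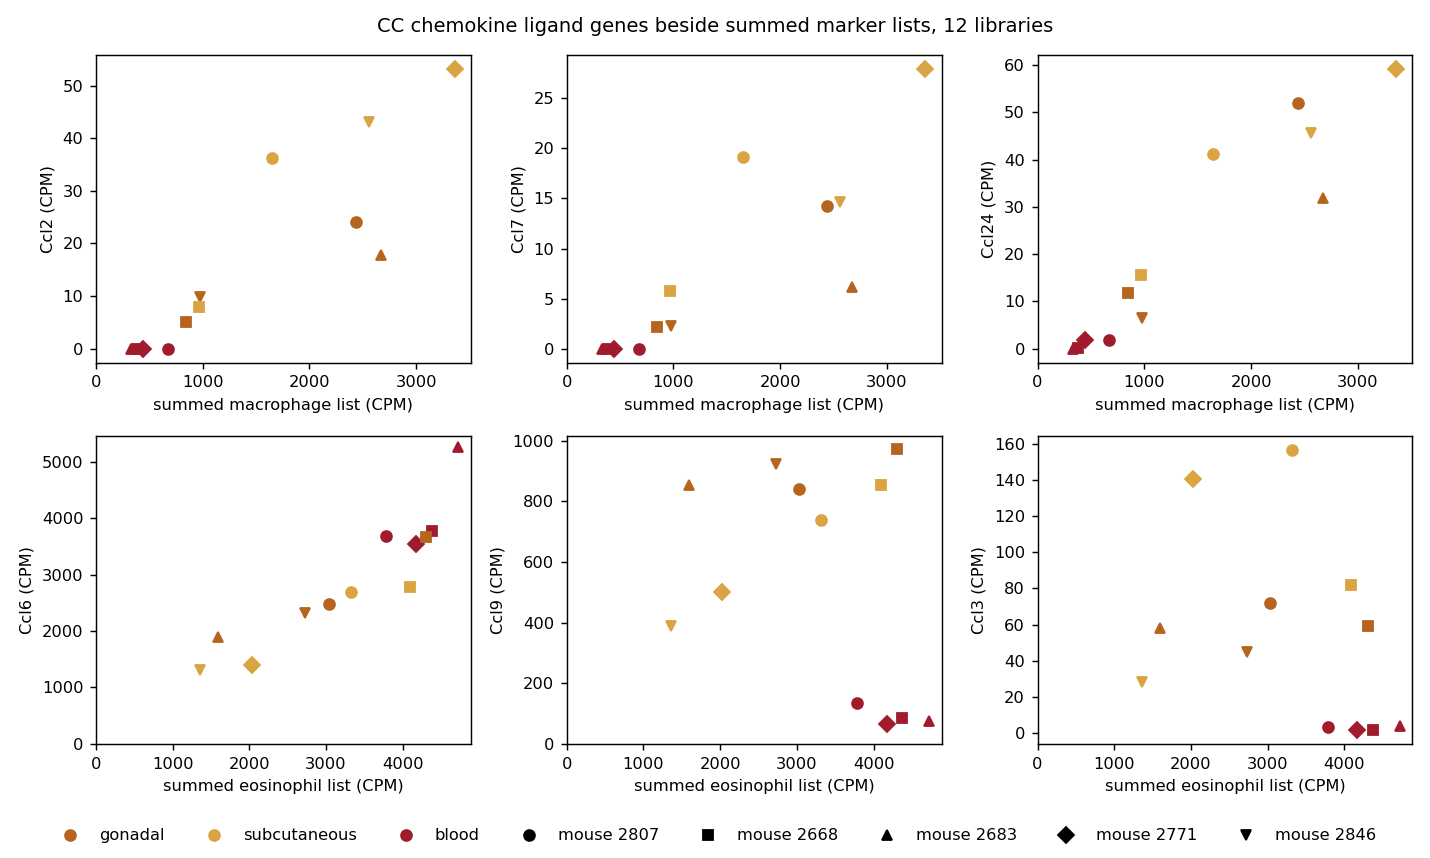
Upper row: Ccl2, Ccl7 and Ccl24 (CPM) against the summed macrophage list (CPM); lower row: Ccl6, Ccl9 and Ccl3 (CPM) against the summed eosinophil list (CPM); each symbol is 1 of 12 libraries, coloured by tissue and shaped by mouse. Ccl2, Ccl7 and Ccl24 are highest in the library with the highest macrophage sum (3360 CPM), Ccl6 is highest in the library with the highest eosinophil sum (4719 CPM), and the 4 blood libraries lie apart for Ccl9.

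The genes whose pattern over all 12 libraries was most like each CC ligand gene differed from gene to gene (Pearson's r of log2 CPM, a description over libraries that share tissue and mouse). Nearest to Ccl3 were Zfp36, whose product destabilises AU-rich mRNAs (r 0.98), the prostaglandin synthase gene Ptgs2 (0.98) and the NF-kB inhibitor gene Nfkbid (0.98). Nearest to Ccl24 were Pdgfc, Tanc2 and the macrophage folate receptor gene Folr2 (0.99, 0.98 and 0.98). Nearest to Ccl2 were C1qtnf1 (0.99), Ago3 (0.98) and the anti-inflammatory cytokine gene Il10 (0.98), and nearest to Ccl7 were Epor, Pla2g2d and the lectin gene Cd209f (0.99, 0.99 and 0.98). Nearest to Ccl6 were the myosin light chain gene Myl12b (0.99), the actin nucleation gene Arpc5 (0.98) and Sort1 (0.98). Nearest to Ccl9 were Ptp4a1 (0.99), Rrbp1 (0.98) and Osgin2 (0.98), and nearest to Ccl4 were Srxn1 (0.98), the cell death gene Bcl2l11 (0.96) and Blcap (0.96). Ccl22 was most like Blvra (0.96) and Ccl5 most like Zfp946 (0.89). Within the 8 adipose libraries the nearest gene was Myl12b for Ccl6 (0.98), C1qtnf1 for Ccl24 (0.998), the Fc receptor gene Fcgr1 for Ccl2 (0.97), Cd38 for Ccl7 (0.99) and Dop1b for Ccl9 (0.99).

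Of 11 other CC ligand genes, 5 could be tested and 3 of these were higher in both depots, none lower, beside 15.4% of all genes higher in each depot. The 3 were Ccl8, Ccl11 (eotaxin) and Ccl12, which had no blood read and so passed the filter through fat alone; their count is a description. Ccl8 had 2.78 ± 1.68 CPM in gonadal, 10.2 ± 10.1 CPM in subcutaneous and 0 CPM in blood libraries, and Ccl11 had 1.63 ± 0.763, 7.21 ± 11.8 and 0 CPM in the same groups (SD, n = 4 each). Subcutaneous libraries of Ccl11 ran from 0 to 24.9 CPM, so they overlapped with blood and the mean rests mostly on 1 library. Ccl25 averaged 7.50 ± 3.27 CPM in gonadal, 6.55 ± 1.76 CPM in subcutaneous and 10.4 ± 3.63 CPM in blood libraries and did not pass the test.

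On the receptor side 8 of 14 CC receptor and scavenger genes were tested. Ccrl2 and Ccr1 were higher and Ccr3 was lower in both depots. Over all genes 15.4% were higher in each depot, 11.6% lower in gonadal and 11.4% lower in subcutaneous adipose. In either direction 27% were called in gonadal and 26.8% in subcutaneous adipose. The calls among so few receptor genes are given as a description. Ccrl2, an atypical receptor that binds chemerin without signalling, had 971 ± 256 CPM in gonadal, 881 ± 413 CPM in subcutaneous and 14.3 ± 2.63 CPM in blood libraries (SD, n = 4 each). On the log2 scale Ccrl2 was higher by 6.08 (SE 0.39) in gonadal and by 5.94 (SE 0.39) in subcutaneous adipose. Ccr1, the receptor of Ccl3, Ccl6 and Ccl9, was higher by 1.45 (SE 0.29, edgeR adjusted p = 0.00367) in gonadal and by 0.95 (SE 0.29, edgeR adjusted p = 0.0286) in subcutaneous adipose. Ccr3, the eotaxin receptor, had 725 ± 245 CPM in gonadal, 704 ± 340 CPM in subcutaneous and 1526 ± 127 CPM in blood libraries, and was lower in both depots (log2 fold change -1.07 and -1.12, edgeR adjusted p = 0.0316 and 0.0275). Ccr4, the receptor of Ccl17 and Ccl22, averaged 0.0152 CPM in gonadal and 0.0131 CPM in blood libraries and had no subcutaneous read.

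Genes of pathways known to control these ligands were also compared with blood. Of 11 genes of NF-kB and its feedback, 9 were higher in each depot and none lower, beside 15.4% of all genes higher in each depot. Tnfaip3, which ends NF-kB signalling, was higher by 4.42 (SE 0.35) in gonadal and 4.95 (SE 0.36) in subcutaneous adipose on the log2 scale. Nfkbiz was higher by 3.94 and 4.32, and Nfkbia by 3.66 and 4.06. Of 6 genes whose products bind mRNAs and control their decay, 3 were higher in each depot and none lower, with Zfp36 at 3.30 (SE 0.28) in gonadal and 3.63 (SE 0.28) in subcutaneous adipose. Of 10 tested genes of the IL-4 and STAT6 arm, gonadal adipose had 3 higher and 1 lower, and subcutaneous adipose 2 higher and 1 lower, counts not far from the 27% and 26.8% of all genes called in either direction. Il13 was higher by 4.17 (SE 0.99) in gonadal and by 2.97 (SE 0.95) in subcutaneous adipose, over a mean of 0.429 CPM in blood libraries. Stat6, the factor that drives Ccl17, Ccl22 and Ccl24 in mouse macrophages, was lower by a log2 fold change of -1.03 (SE 0.15) in gonadal and -0.99 (SE 0.15) in subcutaneous adipose. Of 13 early response and heat shock genes, 12 were higher in gonadal and 13 in subcutaneous adipose and none lower, with median log2 fold changes of 4.50 and 4.74. These lists, like the ligand genes, were compared across the 37 C digestion as well as across tissues, and the 2 cannot be told apart. No gene of these lists passed the test between depots.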

How the data were processed

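The 12 libraries of sorted cells were prepared from total RNA with the SMARTer pico kit named in the labels. Trim Galore 0.6.4, Salmon 1.6.0, DESeq2 1.30.1 and mm10 are named in the submitters' processing notes. The deposited tables hold, per the file headers, estimated counts, TPM and effective length for 140992 transcripts. The annotation release and strand setting are not given in the sources used here. With GENCODE M21, 139791 transcripts matched. The 1201 others held 0.351% to 0.538% of a library's reads and were left out. The authors' expected counts were summed per gene and rounded. Deposited TPM served for levels between genes, and effective length for an alternative offset.

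Tests used edgeR 4.0.16 (R 4.3.3; quasi-likelihood, robust, TMM, filterByExpr by group) over all 12 libraries with group as the only term, adjusted by Benjamini and Hochberg over 15367 genes. The common biological coefficient of variation was 0.545. The SE is the log2 fold change divided by the square root of F. Log2 CPM for correlations has a prior count of 2. Folds against 0 reads use a floor of 3 counts over the group, and intervals and floors cover counting error only, since no molecular identifiers are named. The shallowest library gives the least precise low values. Animals, not cells, are the replicates. The same mouse number marks the same animal. Deviations from group means correlated by -0.111 to 0.358 over 9 same-mouse pairs. Alternatives were a mouse block, DESeq2 1.42.0, limma-voom (limma 3.58.1), other scaling, filters, transcripts and length, 2-group fits and left-out libraries. The 10 genes, the lists and the rule for named genes were chosen with earlier results of these data known. That rule names all 10 genes, the 3 most similar genes each, and up to 3 called genes of a list whose higher group averages 5 CPM or more. Ccr4, Ccl12, Ccl25, Ccl11 in gonadal adipose, Il13 in subcutaneous adipose and the called or absent marker genes were named after their values were seen. Promoters of 5 of the 10 genes were in the RefSeq table used. A receptor gene of the lists is not reported here.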

Additional observations from a re-analysis of the deposited data

Results flagged for a closer look

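Among 27 sets of 4 libraries with reads, 3 values stood far from the other libraries of their group. A set with reads in only 1 library is always marked, as for Ccl2 in blood, so the number of marked sets was not compared with chance. The blood library of mouse 2683 had 0.0524 CPM of Ccl2, which is the only Ccl2 read in blood. The same library had 5265 CPM of Ccl6, against 3544 to 3778 CPM in the other blood libraries, and 4719 CPM for the eosinophil list, also the highest of all libraries. The gonadal library of mouse 2668 had 0.548 CPM of Ccl17, while the other gonadal libraries had 0 to 0.0785 CPM.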

How the results depend on the processing

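Over 22 alternatives, 7 of the 9 genes were called in gonadal adipose against blood except with limma-voom, which called 8. Against blood, subcutaneous adipose had 7 to 9, with 9 by DESeq2 and limma-voom. It had 7 with the mouse as a replicate block, in the 2-group fit, and without subcutaneous 2846 and blood 2807 together. Leaving out 1 library at a time gave 7 in gonadal and 7 to 8 in subcutaneous adipose. None of the 9 genes was called between depots under any alternative. Counts with the replicate block were 7, 7 and 0, so pairing by mouse changed only the Ccl6 call (adjusted p = 0.0569). Over all genes the block gave 1862 higher and 1415 lower in gonadal and 1588 higher and 1322 lower in subcutaneous adipose. Counts over all genes that moved by over 1.5 times were those of limma-voom in gonadal adipose (3614 higher and 2870 lower, against 2372 and 1780), protein-coding transcripts in subcutaneous adipose (1069 lower, against 1755), and leaving out the blood library of mouse 2771, 2683 or 2668 (1546, 1554 and 1564 higher in gonadal adipose, against 2372; 1566 and 1569 higher in subcutaneous adipose without mouse 2683 or 2668, against 2366). The DESeq2 counts between depots were 41 higher and 126 lower over all genes, against 0 and 1 with edgeR, which gave 0 to 1 higher and 0 to 7 lower with 1 library left out.

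The direction changed only for uncalled values. Ccl5 in gonadal adipose against blood had -0.39 with protein-coding transcripts, -0.024 with the length offset, -0.32 without the blood library of mouse 2683 or 2668, and -0.75 without the gonadal library of mouse 2683, with 1.31 as the highest value when 1 library was left out. Ccl4 between depots had 0.18 with the block. The cause was not tested. Ccl6 in subcutaneous adipose had an adjusted p of 0.0823 without both libraries that stood apart. Ccl22 gave no value in the 2-group fit of subcutaneous adipose and blood, where its counts fell under the filter. Ccl5, Ccl17 and Ccl22 rest on few reads, and a level of up to 0.0388 CPM in blood would not be seen.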
